A study of Mus musculus with 42 samples.

Results

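The response of the carotid intima to low flow was examined in mice given a nonspecific IgG, the control for the antibodies that deplete platelets or Gr1-positive cells. It rests on 4 of the 42 samples of the series, chosen by their labels: 2 low-flow and 2 high-flow libraries, all with IgG and all collected 48 hr after surgery. The mice were male C57BL/6J of 6 to 7 weeks. Low flow was made by partial ligation of the left carotid artery, in which every outflow branch but a small thyroid one is tied off. High flow is the unligated contralateral artery of ligated mice and not a sham artery. Each library was made from the intimal RNA of 3 to 5 arteries, flushed out with Trizol and pooled, so it holds endothelial RNA together with that of any cells recruited to the vessel wall. IgG served in the study as the control of 2 antibody regimens, one given at the time of ligation and the other before it, and the labels do not say which these mice received. The labels also do not say whether a low-flow and a high-flow library with the same number come from the same mice.

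Steady laminar shear holds arterial endothelium in a quiet state, in which the transcription factors Klf2 and Klf4 keep vasodilator and anticoagulant genes on and adhesion molecules off. Where flow is low and disturbed this program is lost, endothelial cells enter the cell cycle, and leukocytes and platelets attach. Such stretches of artery are the sites where atherosclerosis begins.

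Total expected counts were 16474222 and 19035957 at low flow and 12286104 and 13611144 at high flow, and between 12543 and 14955 genes had at least 1 count in a library. Values below are FPKM, counts scaled to the effective transcript length and to the total of the library, always with library 1 before library 2. Replicates had a Pearson correlation of log2(FPKM + 1) across 21674 genes of 0.9907 at low flow and 0.9846 at high flow. All low-flow libraries of treated mice were sequenced in an earlier run than all high-flow ones, so the run and the flow cannot be told apart within these 4 libraries. With 2 libraries against 2, the exact two-sided permutation test of a single gene cannot go below 0.333. The adjusted p-values are those of the quasi-likelihood test of edgeR, which borrows the spread from other genes and from 5 further groups of 2 treated libraries fitted with these 4 (low flow with Anti-GPIba, Anti-Gr1 or clodronate liposomes, and low and high flow with PBS liposomes), and they measure the spread between pools only.

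Low flow changed 5422 of the 13401 genes tested, or 40.5%, at an adjusted p under 0.05. It raised 3053 genes (22.8%) and lowered 2369 (17.7%), and the median log2 fold-change over all genes tested was 0.07. Raised genes moved further: 846 of them, against 148 of the lowered ones, had a log2 fold-change of at least 3 in size, and 273 raised genes were listed at 0 in a whole group against 2 lowered ones. Both low-flow libraries lay above both high-flow libraries for 5723 genes (42.7%) and below them for 4203 (31.4%). The 2 low-flow libraries were not equally far from high flow. Among the lowered genes low-flow library 1 had the higher, less lowered level in 85.5%, against 54.3% of all genes tested, and among the raised genes low-flow library 2 had the higher level in 69.4%, against 45.7% of all. Without low-flow library 2 the test called 2141 genes, of which 1406 were raised, and without high-flow library 1 it called 3581, of which 1922 were raised. Other fits are quoted where they change what a group of genes shows. They are a fit with an offset for transcript length, with which medians of log2 fold-change are level across lengths, and a fit with a term for the sequencing run, which can be estimated only from low-flow arteries of another cohort at 7 days. Those are 4 libraries, in each run 1 of Rbfox2 EC-KO mice, in which Cdh5(PAC)-CreERT2 deletes floxed Rbfox2 in endothelial cells, and 1 of Rbfox2 control mice. A call is termed kept where it held, in the same direction, in all 4 of the fits that each left out 1 IgG library. Losses with 1 library left out are given by name for genes whose levels are given. Such a fit leaves 1 library in a group, and whether a loss came from that or from the library left out was not tested.

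Of the 10 raised genes with the largest fitted fold-change, by the rule given with the methods, 9 were listed at 0 in both high-flow libraries. The fitted value of a gene at 0 depends on the prior count of the fit, so this rank is no measure of size. Those given here have a lower bound against a floor of 3 counts per library. Esm1, at chr13:113999867-114008306 of mm9, encodes the secreted proteoglycan endocan and marks tip cells. It had 91.3 and 86.7 FPKM at low flow and was at least 751-fold higher there (adjusted p = 0.0356). Il1b, at chr2:129190306-129196875 of mm9, encodes the cytokine interleukin-1 beta and had 188 and 47.2 FPKM, at least 600.3-fold above high flow. Kit, at chr5:75970941-76052747 of mm9, a receptor tyrosine kinase for stem cell factor, had 17.3 and 35.0 FPKM and was at least 566-fold higher. Esm1 and Il1b were higher in low-flow library 1 and Kit in library 2, but no high-flow library had a count of any of them. Ano1, a calcium-activated chloride channel, had 9.54 and 15.4 FPKM at low flow and a bound of 227-fold. Havcr2, the immune receptor TIM-3, had 11 and 10.1 FPKM and a bound of 117-fold. For the protease inhibitor gene Spint1, Prnd and the uncharacterized 4833422F24Rik the bounds were 103-fold, 103-fold and 90.5-fold. Igfbp3, at chr11:7106089-7113926 of mm9, which encodes a binding protein of insulin-like growth factors, was the exception with counts at high flow: it had 158 and 402 FPKM at low flow and 0.0354 and 0.192 at high flow, with a log2 fold-change of 11.10 (SE 2.56, adjusted p = 0.00687). With 1 library left out, calls were lost for Igfbp3 without high-flow library 1 (adjusted p = 0.0567), Kit without either high-flow library (adjusted p = 0.0555 to 0.0577) and Esm1 without any 1 of the 4 (adjusted p = 0.0603 to 0.132).

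The 10 lowered genes that changed most kept some signal at low flow. Klk10, at chr7:51036424-51040780 of mm9, which encodes a secreted kallikrein-related protein, had 48.8 and 6.95 FPKM at low flow and 899.7 and 796 at high flow, with a log2 fold-change of −5.02 (SE 0.82, adjusted p = 0.00156). Prrt4, a membrane protein gene at chr6:29119232-29129584 of mm9, had 3.16 and 0.411 FPKM at low flow and 81.3 and 73.9 at high flow, with a log2 fold-change of −5.54 (SE 0.76, adjusted p = 8.81e-04). Both genes had their lowest level in low-flow library 2, and the highest low-flow level lay far below the lowest high-flow level. Vipr1, a receptor for vasoactive intestinal peptide, had 1.51 and 0.243 FPKM at low flow and 21.1 and 27.8 at high flow (log2 fold-change −4.91). Adra2c, an adrenergic receptor, had 0.815 and 0.138 FPKM at low flow and 18.5 and 5.39 at high flow (−4.73), and its 2 high-flow libraries differed from each other by over 3-fold. Fndc1, a gene for a protein with fibronectin type III domains, had 9.63 and 2.08 FPKM at low flow and 136 and 147 at high flow (−4.69). The phospholipase gene Pla2g5 (−4.45), Sned1 (−4.55) and Plekha6 (−4.39) were lower in low-flow library 2 than in library 1 as well. Serpina1d and Serpina1b, near-identical copies of the alpha-1 antitrypsin gene between which reads cannot be split with certainty, fell by the most. Serpina1d had 0.331 and 0.125 FPKM at low flow and 30.3 and 37.6 at high flow (−7.32) and Serpina1b had 0.0483 and 0.211 FPKM at low flow and 13.1 and 15.6 at high flow (−6.81), on no more than 7 counts in a low-flow library. Adjusted p-values of the 10 lay between 8.81e-04 and 0.00345, and none of these calls was lost when any of the 4 libraries was left out, while Serpina1b lost its call with the run term (adjusted p = 0.0512).

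**Figure D1:**
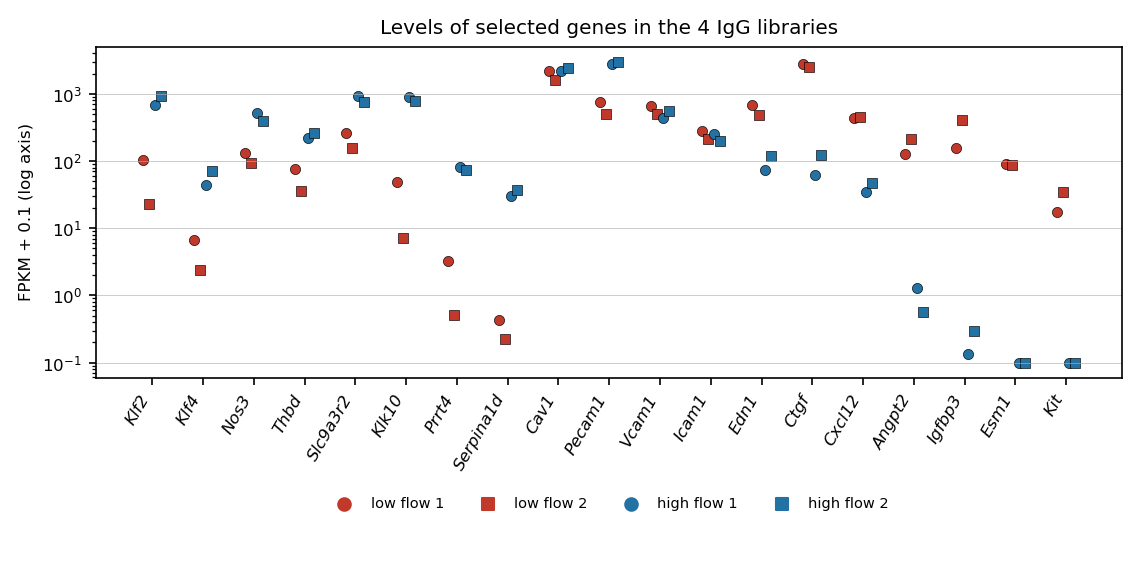
FPKM plus 0.1 on a log axis (y) of selected genes (x) in each of the 4 IgG libraries, red for low flow and blue for high flow, circles for library 1 and squares for library 2. Klf2, the genes to Serpina1d and Pecam1 lie lower at low flow, Cav1, Vcam1 and Icam1 overlap between the groups, and the genes from Edn1 to Kit lie higher at low flow, with Esm1 and Kit at 0 in both high-flow libraries.

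Genes that shear stress is known to control moved as a group toward lower levels. Of 26 tested members of a list of shear-induced transcription factors and their targets, 15 fell and 4 rose, beside 17.7% lowered and 22.8% raised of all genes tested, with a median log2 fold-change of −1.2 against 0.07 over all genes. Klf2, at chr8:74842932-74845555 of mm9, had 105 and 23.2 FPKM at low flow and 679 and 932 at high flow, with a log2 fold-change of −3.75 (SE 0.56, adjusted p = 0.00114). Klf4, its close relative, had 6.55 and 2.28 FPKM at low flow and 43.3 and 70.9 at high flow, with a log2 fold-change of −3.79 (SE 0.60, adjusted p = 0.00144). Low-flow library 2 was the lowest of the 4 for both factors, and the groups did not overlap. Nos3, the endothelial nitric oxide synthase, had 134 and 93.5 FPKM at low flow and 524 and 397 at high flow, with a log2 fold-change of −2.10 (SE 0.27, adjusted p = 6.89e-04). Ass1, which supplies arginine for nitric oxide synthesis, had 8.18 and 3.59 FPKM at low flow and 64.1 and 49.3 at high flow, with a log2 fold-change of −3.36 (SE 0.39, adjusted p = 5.76e-04). Both fell in the 2 libraries, Ass1 the further of the pair. Aqp1, a water channel (−3.01), Ptgs1, a cyclooxygenase of prostacyclin synthesis (−2.29), Dhh, the ligand desert hedgehog (−2.34), Slc9a3r2 (−2.09) and the anticoagulant receptor Thbd (−2.19) were also lower. Pi16, a protease inhibitor gene that also stands in the list of fibroblast markers, had 29.3 and 13.1 FPKM at low flow and 198 and 149 at high flow, with a log2 fold-change of −3.12 (SE 0.44, adjusted p = 9.38e-04). The 4 that rose were Hmox1 (3.09), Edn1 (2.51), Gja4 (1.49) and Adm (4.10). Of these Edn1, which encodes the vasoconstrictor endothelin-1 and is repressed by laminar shear, had 693 and 479 FPKM at low flow and 74.6 and 118 at high flow, with a log2 fold-change of 2.51 (SE 0.52, adjusted p = 0.00408). Hmox1, heme oxygenase, had 27.5 and 24.9 FPKM at low flow and 1.48 and 4.26 at high flow (3.09), and the connexin gene Gja4 had 502 and 412 FPKM at low flow and 209 and 100.7 at high flow (1.49). Gja5, another arterial connexin, went the other way, with 193 and 284 FPKM at low flow and 558 and 490.2 at high flow, with a log2 fold-change of −1.21 (adjusted p = 0.0102). Cav1, the caveolae coat protein, had 2207 and 1609 FPKM at low flow and 2198 and 2394 at high flow, with a log2 fold-change of −0.35 (adjusted p = 0.307), and S1pr1, the sphingosine phosphate receptor, 302 and 335 FPKM at low flow and 282 and 355 at high flow, with a log2 fold-change of −0.09 (adjusted p = 0.755). In both, the libraries of the 2 groups overlapped. Not all of these calls held with 1 library fewer. They were lost for Gja4 without high-flow library 2 (adjusted p = 0.0523), Gja5 without low-flow library 1 (adjusted p = 0.0760) and Thbd without low-flow library 2 or high-flow library 2 (adjusted p = 0.0654 to 0.140). Without low-flow library 2 the list had 3 raised and 11 lowered members, with the length offset 4 and 16, and with the run term 3 and 12, Gja5 no longer among them (adjusted p = 0.0575). Of the calls 2 raised and 10 lowered were kept.

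Junction genes and general endothelial markers fell in part. Among 17 tested mechanosensors and junction genes 7 fell and 3 rose, Kdr (3.07), Jam3 (1.15) and Gja1 (5.16) (median −0.61), and among 11 markers of endothelial cells 5 fell and 1 rose (median −0.75), beside 17.7% lowered and 22.8% raised of all genes tested. Pecam1, a junctional adhesion molecule of the shear-sensing complex, had 770.2 and 496 FPKM at low flow and 2775 and 2984 at high flow, with a log2 fold-change of −2.27 (SE 0.34, adjusted p = 0.00114). Vwf, the von Willebrand factor, had 127 and 69.8 FPKM at low flow and 526 and 519 at high flow (−2.50). Cldn5, a tight junction protein, had 195 and 152 FPKM at low flow and 427 and 356 at high flow (−1.26). These 3 genes stood lower in both low-flow libraries. The angiopoietin receptor gene Tek and its partner Tie1 fell by 1.92 and 1.47 on the log2 scale, from 294 and 299 FPKM to 80.3 and 85.4 for Tek and from 306 and 256 to 114 and 99.7 for Tie1. Tjp1, the tight junction scaffold ZO-1, fell from 31.4 and 44.9 to 10.9 and 9.71 FPKM (−1.98) and Jam2 from 189.7 and 164 to 49.4 and 26.1 (−2.31). Other junction genes did not pass the threshold. Esam, an adhesion molecule of endothelium, had 559 and 665 FPKM at low flow and 526 and 474 at high flow, with a log2 fold-change of 0.21 (adjusted p = 0.463), and F11r, which encodes JAM-A, had 201 and 254 FPKM at low flow and 243 and 208 at high flow, with a log2 fold-change of −0.06 (adjusted p = 0.827). Emcn, the sialomucin endomucin, which is found mainly on veins and capillaries, rose, with 278 and 396 FPKM at low flow and 46.0 and 87.2 at high flow, with a log2 fold-change of 2.25 (SE 0.39, adjusted p = 0.00194). Gja1, the connexin of wound edges and disturbed flow, had 39.6 and 78.3 FPKM at low flow and 1.15 and 1.94 at high flow, with a log2 fold-change of 5.16 (SE 1.21, adjusted p = 0.00722), and Kdr, the main receptor of VEGF-A, 4.01 and 5.10 FPKM at low flow and 0.322 and 0.693 at high flow (3.07). In a bulk sample a smaller share of endothelial cells and less RNA of these genes per cell cannot be told apart. The summed endothelial markers had 2623 and 2357 FPKM at low flow and 5516 and 5436 at high flow. Pecam1 made up most of the high-flow sums, and Esam and Emcn did not fall, so the sums do not measure endothelial content. The median log2 fold-change of these markers was 0.12 in pools of untreated mice and −0.10 with PBS liposomes. Leaving out a library ended the call of Gja1 without high-flow library 1 (adjusted p = 0.0596), Cldn5 without low-flow library 2 or high-flow library 1 (adjusted p = 0.0691 to 0.115) and Kdr without low-flow library 2 or either high-flow library (adjusted p = 0.0536 to 0.125). Of the junction genes 5 lowered calls were kept and none of the raised ones, and of the endothelial markers 4 and 1. With the length offset the junction list had 2 raised and 7 lowered members (median −0.27).

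Leukocyte transcripts were higher at low flow in both libraries. All 10 pan-leukocyte and myeloid markers rose (median 4.30), 11 of 14 tested macrophage markers (median 2.78) and 8 of 11 neutrophil markers (median 4.0), and none fell, against 22.8% raised and 17.7% lowered of all genes tested. Ptprc, the leukocyte antigen CD45, had 34.1 and 25.1 FPKM at low flow and 1.89 and 2.60 at high flow, with a log2 fold-change of 3.63 (SE 0.56, adjusted p = 0.00131). Itgam, the integrin alpha chain of CD11b, had 17.5 and 11.7 FPKM at low flow and 0.395 and 1.25 at high flow, with a log2 fold-change of 4.05 (SE 0.91, adjusted p = 0.00605). Both were several times higher in each low-flow library than in either high-flow one. Cd68, a lysosomal protein of macrophages, had 52.2 and 41.4 FPKM at low flow and 1.60 and 4.25 at high flow, with a log2 fold-change of 3.89 (SE 0.46, adjusted p = 5.76e-04). Emr1, which encodes the macrophage antigen F4/80, had 6.87 and 6.03 FPKM at low flow and 0.0525 and 1.75 at high flow, with a log2 fold-change of 2.72 (adjusted p = 0.0397), and its high-flow libraries differed from each other more than its low-flow ones. Lyz2, lysozyme of myeloid cells, had 1988 and 1869 FPKM at low flow and 46.3 and 199 at high flow, and C1qb, a complement chain made by macrophages, 73.4 and 98.8 FPKM at low flow and 5.86 and 16.9 at high flow. The receptors Csf1r (3.79) and Cx3cr1 (6.36) rose as well. Cxcr2, the neutrophil chemokine receptor, had 27.2 and 7.79 FPKM at low flow and 0 and 0.203 at high flow, with a log2 fold-change of 7.24 (SE 1.29, adjusted p = 0.00229). The alarmin gene S100a8 had 151 and 36.7 FPKM at low flow and 1.96 and 9.45 at high flow (3.91) and its partner S100a9 177 and 44.5 FPKM at low flow and 0.473 and 11.9 at high flow (4.02). All 3 neutrophil genes were several times higher in low-flow library 1 than in library 2. Summed over each list, the neutrophil markers had 472 and 138 FPKM at low flow and 4.28 and 61.9 at high flow, the macrophage markers 2419 and 2236 FPKM at low flow and 75.7 and 268 at high flow and the pan-leukocyte markers 1023 and 754 FPKM at low flow and 24.7 and 38.5 at high flow. With the length offset 5 neutrophil, 10 macrophage and 10 pan-leukocyte markers were raised, S100a8 and S100a9 no longer among them. Calls were lost for S100a9 without low-flow library 1 and for S100a8 without low-flow library 1 or high-flow library 1. That of Emr1 was lost without either low-flow library or high-flow library 1. All 10 pan-leukocyte calls were kept, 8 of the macrophage calls and 4 of the neutrophil calls, and without low-flow library 1 the number of neutrophil markers raised was 4.

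Markers of other cell types were measured in the same libraries, and their part in the results was not tested. Of 10 smooth muscle markers 3 rose, with a list median of −0.05. This and the counts that follow are to be read against 22.8% raised and 17.7% lowered of all genes tested, and many lie near or below those shares. Acta2, smooth muscle actin, had 2073 and 2349 FPKM at low flow and 148 and 278 at high flow, with a log2 fold-change of 3.28 (SE 0.67, adjusted p = 0.00400). Tagln, which binds actin, had 525 and 410.4 FPKM at low flow and 56.8 and 63.2 at high flow, with a log2 fold-change of 2.87 (SE 0.50, adjusted p = 0.00208), and the third was Tpm2, a tropomyosin. Other contractile genes of the list did not pass the threshold, and they went both ways. Myh11 had 1.58 and 1.11 FPKM at low flow and 2.52 and 3.39 at high flow (log2 fold-change −1.23, adjusted p = 0.224). Cnn1 had 8.66 and 11.3 FPKM at low flow and 6.40 and 4.62 at high flow (log2 fold-change 0.78, adjusted p = 0.321). Of the 10 markers 5 were higher in both low-flow libraries than in both high-flow ones, and 4 were lower. Fibroblast markers had 5 of 10 lowered (median −1.16), Pi16 (−3.12), Col1a1 (−2.37), Col1a2 (−2.14), Mfap5 (−1.73) and Clec3b (−3.17), and their sums were 284 and 225 FPKM at low flow and 738 and 689 at high flow. Among them Mfap5, a microfibril protein, had 105 and 79.7 FPKM at low flow and 308 and 269 at high flow, whereas Dcn, a proteoglycan common in fibroblasts, had 65.5 and 51.5 FPKM at low flow and 43.9 and 97.7 at high flow (log2 fold-change −0.37, adjusted p = 0.645). Fat cell markers had 2 of 9 lowered, Plin1 (−4.19) and Lipe (−1.93), and their sums were uneven between replicates, with 114 and 11.6 FPKM at low flow and 147 and 184 at high flow. Adipoq, the fat hormone adiponectin, had 9.98 and 0.965 FPKM at low flow and 10.2 and 13.8 at high flow, so low-flow library 1 was level with high flow and library 2 was far lower. Of 9 platelet markers 1 rose, Pf4, platelet factor 4, with 30.3 and 32.5 FPKM at low flow and 4.21 and 3.14 at high flow (log2 fold-change 3.01, adjusted p = 0.00607), and 1 fell, Gp1ba (−1.43), while Ppbp had 9.60 and 3.98 FPKM at low flow and 1.39 and 6.12 at high flow (log2 fold-change 0.74, adjusted p = 0.454). The 11 tested markers of T, B and NK cells had no call, and their sums were 22.5 and 11.7 FPKM at low flow and 8.53 and 6.82 at high flow. Red cell markers had 1 of 8 lowered, Alas2 (−2.26), thyroid and parathyroid markers 1 of 3 raised, Calca (at least 4.88-fold), skeletal muscle markers 1 of 7 raised, Acta1 (4.26), and neuron and Schwann cell markers 3 of 5 lowered, Pmp22 (−0.97), Prx (−1.94) and S100b (−3.28). Thyroid and parathyroid markers were mostly in low-flow library 1, with a sum of 11 FPKM against 0.535 in library 2 and at most 0.336 at high flow. With the run term Tagln (1.39) and Pf4 (2.14) did not pass the threshold, nor did Pf4 with the length offset (adjusted p = 0.111). The fat cell count rested on single libraries: 7 were lowered without low-flow library 1 (median −4.70), none without low-flow library 2 or high-flow library 1, and 6 with the run term. Lowered red cell markers numbered 4 with the length offset and 6 with the run term. Calca lost its call without any 1 of the 4 libraries (adjusted p = 0.0765 to 0.234), with DESeq2, the replicate block, no filter, the run term and the length offset, and Acta1 without low-flow library 1 or either high-flow library (adjusted p = 0.0743 to 0.133) and with the run term (adjusted p = 0.249). Kept calls were 2 of smooth muscle, 3 of fibroblast and 1 of platelet markers, and none of fat, red cell, thyroid, skeletal muscle or neuron and Schwann cell markers.

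**Figure D2:**
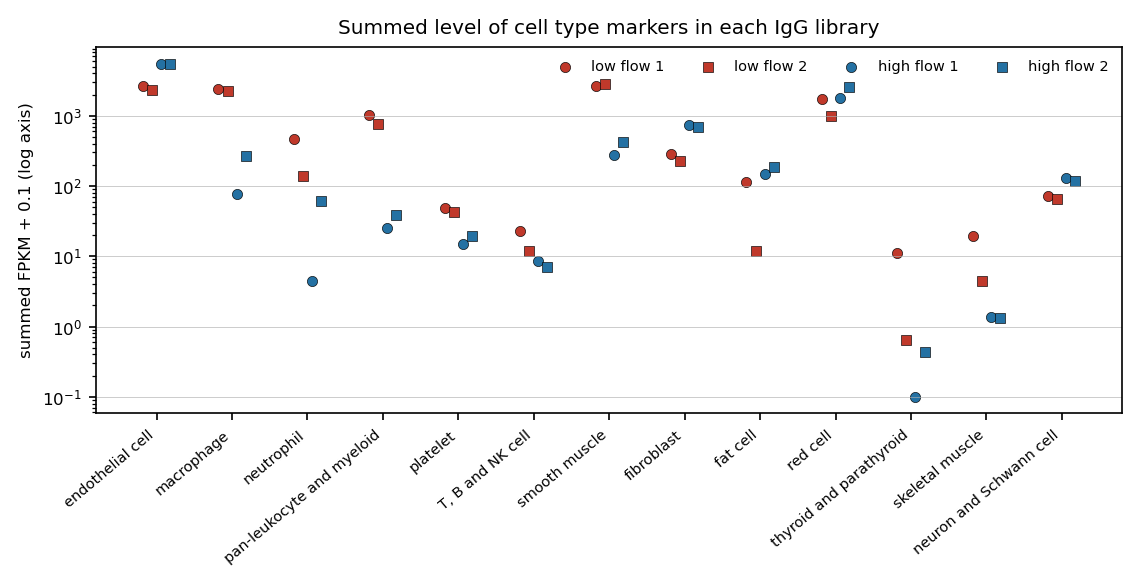
Summed FPKM plus 0.1 on a log axis (y) of the marker genes of 13 cell types (x) in each IgG library, red for low flow, blue for high flow, circles for library 1 and squares for library 2. Macrophage, neutrophil, pan-leukocyte, smooth muscle, platelet and T, B and NK cell sums lie higher in both low-flow libraries. Endothelial, fibroblast, red cell and neuron and Schwann cell sums lie lower, and fat, thyroid and skeletal muscle sums differ widely between the 2 low-flow libraries. Acta2 makes up most of the smooth muscle sum, and Pecam1 most of the endothelial sum at high flow.

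Genes that draw and bind leukocytes rose more often than they fell. Of 22 tested adhesion molecules, chemokines and cytokines 11 rose and 2, Icam2 (−1.10) and Csf1 (−1.12), fell, with a median of 2.47, or 2.35 with genes at 0 put at their bound. Cxcl12, the chemokine SDF-1, had 433 and 459 FPKM at low flow and 34.9 and 46.8 at high flow, with a log2 fold-change of 3.36 (SE 0.72, adjusted p = 0.00481). Ccl2, the monocyte chemokine MCP-1, had 24.7 and 11.3 FPKM at low flow and 0.615 and 0.222 at high flow, with a log2 fold-change of 5.32 (SE 0.73, adjusted p = 8.86e-04). Mif, a cytokine that inhibits macrophage migration, had 318 and 283 FPKM at low flow and 22.4 and 19.2 at high flow, with a log2 fold-change of 3.77 (SE 0.50, adjusted p = 7.66e-04). For each of the 3 genes both low-flow libraries exceeded both high-flow libraries many times over. The main receptors for rolling and firm adhesion changed less. Vcam1 had 650.3 and 509.8 FPKM at low flow and 433 and 559 at high flow, with a log2 fold-change of 0.14 (adjusted p = 0.751), Icam1 had 282 and 211 FPKM at low flow and 249.5 and 196 at high flow, with a log2 fold-change of 0.06 (adjusted p = 0.887), and Selp, P-selectin, had 429 and 442 FPKM at low flow and 299.8 and 292 at high flow, with a log2 fold-change of 0.47 (adjusted p = 0.0865). Libraries of the 2 groups overlapped for Vcam1 and Icam1. Sele, E-selectin, had 94.2 and 86.3 FPKM at low flow and 6.15 and 22.8 at high flow (log2 fold-change 2.54, adjusted p = 0.0429), and Selplg, the selectin ligand carried by leukocytes, 45.1 and 30.3 FPKM at low flow and 0.695 and 0.448 at high flow (5.96). Icam2, a constitutive adhesion molecule of endothelium, fell from 847 and 674 to 391 and 360.0 FPKM (−1.10). Il6, an inflammatory cytokine, had 1.61 and 0.835 FPKM at low flow and 0 and 0 at high flow (at least 4.96-fold higher at low flow). Of 16 tested NF-kB genes 5 rose, Nfkb1 (0.76), Nfkbib (1.56), Nfkbie (2.10), Bcl3 (1.36) and Birc3 (0.92), and 1 fell, Ikbkb (−0.55), beside 22.8% raised and 17.7% lowered of all genes tested. Among the inhibitors, Nfkbib had 33.3 and 45.2 FPKM at low flow and 12.8 and 12.4 at high flow and Nfkbie 12.4 and 11.1 FPKM at low flow and 1.97 and 3.16 at high flow, without overlap between the groups, while the subunit Rela had 97.9 and 104 FPKM at low flow and 99.4 and 113 at high flow (log2 fold-change −0.16, adjusted p = 0.591). Leaving out 1 library ended the calls of Sele and Icam2 without either low-flow library or high-flow library 1 and that of Il6 without any 1 of the 4. Of the adhesion, chemokine and cytokine calls 9 raised and none of the lowered were kept, and of the NF-kB calls 2 raised, Nfkbib and Nfkbie.

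Most angiogenic genes that passed the test were higher at low flow. Of 24 tested members 12 rose and 5 fell, with a median of 2.14 and 1.97 with bounds, against 22.8% raised and 17.7% lowered of all genes tested. Those that fell were Angpt1 (−2.23), Tek (−1.92), Tie1 (−1.47), Notch1 (−2.06) and Lyve1 (−2.15). Angpt2, at chr8:18690263-18741562 of mm9, encodes angiopoietin-2, the ligand that opposes Tek signalling, and had 129 and 215 FPKM at low flow and 1.19 and 0.473 at high flow, with a log2 fold-change of 7.63 (SE 1.14, adjusted p = 0.00114). Both low-flow pools stood far above both high-flow pools. Apln, which encodes apelin and marks tip cells, had 7.84 and 10.1 FPKM at low flow and 0 and 0 at high flow, with a level at least 116-fold higher at low flow (adjusted p = 0.0219). Nrp2, a co-receptor of VEGF ligands, had 0.440 and 0.519 FPKM at low flow and 0 and 0 at high flow, with a level at least 9.40-fold higher at low flow (adjusted p = 0.00799). Dll4, the Notch ligand of tip cells, had 29.9 and 46.2 FPKM at low flow and 8.02 and 4.13 at high flow, with a log2 fold-change of 2.58 (SE 0.54, adjusted p = 0.00432), and Pdgfb, the growth factor that draws mural cells, had 57.8 and 53.3 FPKM at low flow and 10.2 and 14.3 at high flow, with a log2 fold-change of 2.09 (SE 0.43, adjusted p = 0.00416). Cxcr4, the receptor of Cxcl12, had 1.49 and 1.45 FPKM at low flow and 0 and 0.0440 at high flow (a ratio of 63.4, 95% counting interval 11.1 to 2535), and Plaur, the urokinase receptor, 328 and 440.4 FPKM at low flow and 61.1 and 96.3 at high flow (2.20). Flt1, a VEGF receptor, had 16.3 and 24.4 FPKM at low flow and 3.38 and 3.86 at high flow (2.41). None of these overlapped between the groups. Nrp1, which pairs with Kdr, had 95.5 and 76.4 FPKM at low flow and 102 and 96.2 at high flow, with a log2 fold-change of −0.29 (adjusted p = 0.302), and Vegfa itself was lower at low flow, with 5.64 and 4.78 FPKM at low flow and 22.5 and 12.8 at high flow, with a log2 fold-change of −1.83 (SE 0.43, adjusted p = 0.00749). Calls lost with 1 library left out were those of Cxcr4 and Vegfa without low-flow library 2 or high-flow library 1. Those of Apln, Plaur and Flt1 were lost without low-flow library 2 or either high-flow library. The number raised was 6 without low-flow library 2 or high-flow library 1 and 7 without high-flow library 2, and 6 raised and 3 lowered calls were kept.

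In the BMP and TGF-beta pathway more genes fell than rose. Of 26 tested members 9 fell, 4 rose and 13 did not pass the threshold (median −0.68), beside 17.7% lowered and 22.8% raised of all genes tested. The lowered ones were Bmpr2 (−1.16), Acvrl1 (−1.36), Eng (−1.30), Smad6 (−1.37), Smad7 (−2.74), Tgfb3 (−1.70), Tgfbr1 (−1.04), Tgfbr2 (−1.30) and Twist1 (−1.15), and the raised ones included Smad1 (0.79), Tgfbi (4.30) and Thbs1 (2.14). Smad7, an inhibitor of the pathway, had 5.37 and 2.86 FPKM at low flow and 26.9 and 24.7 at high flow, with a log2 fold-change of −2.74 (SE 0.46, adjusted p = 0.00180). Smad6, which inhibits the BMP arm, had 63.7 and 41.9 FPKM at low flow and 119 and 138 at high flow (−1.37), the TGF-beta receptor Tgfbr2 37.9 and 31.3 FPKM at low flow and 81.3 and 79.3 at high flow (−1.30) and the co-receptor endoglin, Eng, 47.1 and 35.6 FPKM at low flow and 100.7 and 91.9 at high flow (−1.30). All 4 were lower in both low-flow libraries. The matrix protein gene Tgfbi had 99.2 and 50.9 FPKM at low flow and 2.67 and 4.44 at high flow, with a log2 fold-change of 4.30 (SE 0.55, adjusted p = 7.19e-04), and Thbs1, thrombospondin-1, 922 and 854 FPKM at low flow and 185 and 195 at high flow (2.14). The Id genes, direct targets of BMP signals, did not pass the threshold: Id1 had 89.7 and 115 FPKM at low flow and 163 and 161 at high flow (log2 fold-change −0.75, adjusted p = 0.0657), Id2 159 and 153 FPKM at low flow and 127 and 115 at high flow (log2 fold-change 0.28, adjusted p = 0.491) and Id3 814 and 899.5 FPKM at low flow and 843 and 768 at high flow (log2 fold-change 0.01, adjusted p = 0.988). Among 16 tested genes of the YAP/TAZ list, beside the same shares over all genes, 5 rose, Ctgf (4.75), Cyr61 (2.15), Ankrd1 (6.67), Tead1 (0.91) and Nuak2 (3.08), and 5 fell, Amotl1 (−0.79), Amotl2 (−1.56), Lats2 (−1.56), Yap1 (−0.99) and Ptpn14 (−2.22). Ctgf, the matricellular protein CCN2, had 2792 and 2474 FPKM at low flow and 62.2 and 122 at high flow, with a log2 fold-change of 4.75 (SE 0.88, adjusted p = 0.00264). Ankrd1, another common readout of YAP, had 20.4 and 66.9 FPKM at low flow and 0.10 and 0.680 at high flow (6.67), and Cyr61 had 3915 and 3346 FPKM at low flow and 598 and 933 at high flow (2.15). The effector gene Yap1 fell from 19.0 and 20.1 to 10.9 and 10.0 FPKM (−0.99), and its paralog Wwtr1 had 133 and 125.2 FPKM at low flow and 90.9 and 122 at high flow (log2 fold-change 0.19, adjusted p = 0.559). With the length offset 7 members rose and 3 fell. With 1 library left out, calls were lost for Smad6 without low-flow library 2 (adjusted p = 0.0637), Eng without low-flow library 2 or high-flow library 1 (adjusted p = 0.0604 to 0.121), Ankrd1 without low-flow library 2 or either high-flow library (adjusted p = 0.0779 to 0.129) and Thbs1, Cyr61 and Yap1 without any 1 of the 4 (adjusted p = 0.0682 to 0.203). Without low-flow library 2 the pathway had 4 lowered and 2 raised members and the YAP/TAZ list 1 and 2. Kept calls were 4 lowered and 1 raised of the former and 1 and 2 of the latter.

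Cell cycle genes were higher at low flow nearly throughout. Of 27 DNA replication genes 25 rose and 0 fell (median 3.21), against 22.8% raised of all genes tested, and 26 of 27 had both low-flow libraries above both high-flow libraries, against 42.7% of all genes tested. Pcna, the sliding clamp of DNA polymerases, had 182 and 255 FPKM at low flow and 29.9 and 32.5 at high flow, with a log2 fold-change of 2.72 (SE 0.59, adjusted p = 0.00524). Mcm7, a subunit of the replicative helicase, had 70.6 and 114 FPKM at low flow and 10.6 and 7.86 at high flow, with a log2 fold-change of 3.25 (SE 0.71, adjusted p = 0.00549). Of the same helicase, Mcm6 had 141 and 206 FPKM at low flow and 39.1 and 42.6 at high flow (2.01) and Mcm3 59.4 and 103 FPKM at low flow and 12.4 and 13.2 at high flow (2.58). In each of these genes low-flow library 2 had the highest level of the 4. Rrm1, the large subunit of ribonucleotide reductase, had 51.6 and 95.4 FPKM at low flow and 17.2 and 18.9 at high flow (1.95), and Rrm2, the small one, 35.3 and 91.5 FPKM at low flow and 3.44 and 1.70 at high flow (4.56). Here too low-flow library 2 had the highest level of the 4. Fen1, a nuclease of lagging strand synthesis, had 44.3 and 89.7 FPKM at low flow and 9.0 and 4.82 at high flow, with a log2 fold-change of 3.21 (SE 0.82, adjusted p = 0.0109). Not all of these calls held with 1 library fewer. They were lost for Mcm3 without low-flow library 2 or high-flow library 1 (adjusted p = 0.0580 to 0.0617), Fen1 without low-flow library 2 or high-flow library 2 (adjusted p = 0.0707 to 0.0768), Mcm6 and Rrm1 without low-flow library 2 or either high-flow library (adjusted p = 0.0641 to 0.231) and Rrm2 without any 1 of the 4 (adjusted p = 0.0548 to 0.183). The number of replication genes called was 4 without low-flow library 2 or high-flow library 1 and 9 without high-flow library 2, and the kept calls were those of Mcm7, Pcna and Rfc3.

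Promoter sequences are shown for 3 of the helicase genes and for Cdca8, a mitotic gene of the chromosomal passenger complex, because these groups moved together. They are from RefSeq on GRCm38.p6, 250 bases before to 50 bases after the start, with the letters searched for in capitals. For Mcm3, Mcm6 and Mcm7 these are TTTGGCGC or TTTCCCGC on either strand, core forms of the E2F element through which replication genes are switched on at the entry into S phase. For Cdca8 they are TTTGAA, the core of the CHR element of mitotic genes, and CCAAT, bound by NF-Y, on either strand. The windows are chr1:20820263-20820562 (- strand) for Mcm3, chr1:128359656-128359955 (- strand) for Mcm6, chr5:138171834-138172133 (- strand) for Mcm7 and chr4:124936868-124937167 (- strand) for Cdca8.
Mcm3: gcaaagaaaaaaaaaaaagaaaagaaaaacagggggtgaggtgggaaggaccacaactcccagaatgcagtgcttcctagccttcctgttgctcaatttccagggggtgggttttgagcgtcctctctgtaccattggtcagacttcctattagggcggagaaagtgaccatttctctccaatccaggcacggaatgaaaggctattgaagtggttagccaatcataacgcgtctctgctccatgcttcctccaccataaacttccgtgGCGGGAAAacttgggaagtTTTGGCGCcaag
Mcm6: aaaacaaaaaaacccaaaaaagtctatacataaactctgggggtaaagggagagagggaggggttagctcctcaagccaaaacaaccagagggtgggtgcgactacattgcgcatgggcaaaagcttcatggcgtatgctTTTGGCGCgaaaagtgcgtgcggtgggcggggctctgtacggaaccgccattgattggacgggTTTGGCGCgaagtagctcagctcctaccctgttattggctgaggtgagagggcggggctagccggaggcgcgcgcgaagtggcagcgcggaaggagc
Mcm7: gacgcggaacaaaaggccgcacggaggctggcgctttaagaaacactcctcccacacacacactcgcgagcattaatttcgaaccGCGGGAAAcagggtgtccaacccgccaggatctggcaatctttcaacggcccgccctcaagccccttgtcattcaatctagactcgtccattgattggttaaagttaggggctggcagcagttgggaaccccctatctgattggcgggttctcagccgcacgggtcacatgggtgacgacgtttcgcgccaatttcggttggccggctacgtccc
Cdca8: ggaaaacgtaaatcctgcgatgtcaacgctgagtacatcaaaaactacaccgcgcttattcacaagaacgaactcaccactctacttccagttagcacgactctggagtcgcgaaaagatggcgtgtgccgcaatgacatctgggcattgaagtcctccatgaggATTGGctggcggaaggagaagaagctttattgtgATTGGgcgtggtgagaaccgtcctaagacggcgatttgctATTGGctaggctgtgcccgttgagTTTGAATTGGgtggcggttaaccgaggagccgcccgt

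The E2F letters were found 2 times in the window of Mcm3, 2 times in that of Mcm6 and 1 time in that of Mcm7. Another Mcm7 window of the same table, chr5:138171217-138171516 (- strand), held 0. Of the 25 raised replication genes 20 had a window, and 7 of these held an E2F element, or 35.0%, against 1.80% of 27025 genes with a window of this length. A CCAAT box was found in 13 of them, against 41.1% of all. Of the 7 raised mitotic genes 6 had a window and 4 of these held the CHR letters, against 20.2% of all, and 3 the CCAAT box, against 41.1% of all. These are matches of letters and say nothing of binding in these samples.

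All 30 mitotic genes had both low-flow libraries above both high-flow ones, against 42.7% of all genes tested, with a median log2 fold-change of 3.59. In contrast 7 of the 30 passed the threshold, a share near the 22.8% raised of all genes, and these were Top2a (4.36), Aurkb (7.97), Plk1 (6.02), Mad2l1 (4.57), Ndc80 (4.83), Nuf2 (4.89) and Cdca8 (5.17). Cdca8 had 37.6 and 74.0 FPKM at low flow and 1.76 and 1.19 at high flow, with a log2 fold-change of 5.17 (SE 1.69, adjusted p = 0.0312). Plk1, a kinase of mitotic entry, had 25.1 and 49.1 FPKM at low flow and 0.277 and 0.785 at high flow (6.02), and Aurkb, a kinase of the same passenger complex as Cdca8, 39.4 and 63.8 FPKM at low flow and 0.0449 and 0.324 at high flow (7.97). Top2a, a topoisomerase of chromosome condensation, had 29.2 and 45.4 FPKM at low flow and 2.17 and 1.29 at high flow (4.36). Birc5, survivin, had 76.9 and 153 FPKM at low flow and 6.46 and 0.946 at high flow, with a log2 fold-change of 4.91 (adjusted p = 0.0568), Ccnb1, cyclin B1, 38.1 and 69.8 FPKM at low flow and 3.04 and 1.56 at high flow, with a log2 fold-change of 4.49 (adjusted p = 0.0826), and Mki67, the proliferation antigen Ki-67, 7.91 and 10.9 FPKM at low flow and 0.828 and 0.629 at high flow, with a log2 fold-change of 3.61 (adjusted p = 0.0897). The groups of these genes were far apart also where the threshold was missed. The number of calls depended on which libraries set the spread. In the joint fit other treated groups of 2 differed widely within themselves: the summed mitotic genes had 171 and 1355 FPKM in the 2 low-flow libraries with PBS liposomes, 49.8 and 1167 in those with clodronate liposomes and 22.2 and 567 in the high-flow libraries with PBS liposomes. Among the IgG libraries the sums were 733 and 1305 FPKM at low flow and 97.4 and 43.0 at high flow. In the 7-day libraries that set the run term the sums were 134 and 158 FPKM in the run of the low-flow libraries and 1644 and 492 in the other. The run term thus also carries that difference in mitotic level. Fitted to the 4 IgG libraries alone, 27 mitotic genes were raised, with DESeq2 on the same 4 libraries 26, with no filter 11 and with the run term 20 (median 6.44). Lower numbers came from the replicate block with 5, the length offset with 4 and each leave-out, with 1 raised without low-flow library 2 or high-flow library 2, none without high-flow library 1 and 4 without low-flow library 1, and no call was kept. Leaving out a library ended the call of Aurkb without either high-flow library (adjusted p = 0.0569 to 0.0826), Cdca8 and Plk1 without low-flow library 2 or either high-flow library (adjusted p = 0.0882 to 0.141) and Top2a without any 1 of the 4 (adjusted p = 0.0689 to 0.182).

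Genes of ribosome production were also higher at low flow. Of 22 ribosome biogenesis genes 18 rose and none fell (median 1.74), against 22.8% raised of all genes tested. Fbl, the methyltransferase fibrillarin of the nucleolus, had 121 and 141 FPKM at low flow and 18.3 and 15.1 at high flow, with a log2 fold-change of 2.89 (SE 0.48, adjusted p = 0.00167). Of its partners in small nucleolar ribonucleoproteins, Nop56 had 116 and 160.5 FPKM at low flow and 23.8 and 24.6 at high flow (2.43) and Nop58 93.7 and 115 FPKM at low flow and 19.8 and 19.4 at high flow (2.33). Npm1, nucleophosmin, had 460.4 and 475 FPKM at low flow and 119 and 105 at high flow, with a log2 fold-change of 1.98 (SE 0.38, adjusted p = 0.00294), and Ncl, nucleolin, 97.6 and 109 FPKM at low flow and 27.4 and 29.6 at high flow (1.77). Low flow was higher in both libraries for every one of the 22, as for 42.7% of all genes tested. Myc, a transcription factor that drives these genes, had 117 and 126 FPKM at low flow and 15.3 and 27.4 at high flow (log2 fold-change 2.42, adjusted p = 0.0396). With the offset 18 were raised as well, at a median of 2.00, 16 of them among those raised without it, and Myc was not (adjusted p = 0.0576). Of 90 tested genes for ribosomal proteins, whose transcripts are short, 78 rose and 2 fell (median 2.13), and they held 1.68% and 1.59% of the counts at low flow and 0.495% and 0.423% at high flow. Under the length offset 55 of the 90 rose (median 0.70), so the size of that rise moved with the handling of length. Calls were lost for Ncl without low-flow library 2 or either high-flow library and for Myc without any 1 of the 4. The number of biogenesis genes raised was 10 without low-flow library 2, 9 without high-flow library 1 and 11 without high-flow library 2, and 9 calls were kept.

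Transcript length moved with flow in these libraries. With genes ordered by length into 5 equal groups, the median log2 fold-change was 0.98 in the shortest (effective length up to 1442 bases) and 0.33, 0.05, −0.40 and −0.71 in the next ones. The PBS liposome libraries, sequenced in the same pair of runs, ran from 1.11 to −0.37, while in untreated pools, whose low-flow and high-flow libraries shared a run, the range was 0.13 to −0.29. A fit with an offset for length took the medians to between 0.00 and 0.05 and called 4398 genes, 3435 of them among the 5422 with the direction kept, while 10 of the 5422 were called in the opposite direction. Estimating the run from 4 libraries of arteries at 7 days that were split over the same runs called 5289 genes and kept 4250 of the 5422. That run term left the length medians at 0.92 to −0.91. Of the named genes given here, Acta1, Bst2, Calca, Col1a1, Cox4i1, Cyr61, Dusp1, Egr1, Gja5, Icam2, Ifitm3, Ikbkb, Il6, Itga4, Myc, P4ha2, Pf4, Sele, Serpina1b, Slc27a4, Tagln, Yap1 and Zbp1 lost their call with the run term, and Atf4, Bst2, Calca, Cdca8, Col1a1, Cox4i1, Cox5b, Cyr61, Esm1, Fabp5, Ifitm3, Ikbkb, Il6, Myc, Ndufa4, Pf4, Plaur, Rrm2, S100a8, S100a9, Slc27a4, Sparc, Tra2b, Yap1 and Zbp1 with the length offset. Calls were also lost for Asns, Calca and S100a9 with DESeq2, for Bst2, Emr1, Ikbkb and Slc27a4 in the fit of the 4 libraries alone, for Calca and Sparc without a filter and for Calca, Cyr61, Il6, Rrm1, Rrm2, Sparc, Top2a and Yap1 with the replicate block. Which part of the length trend belongs to low flow and which to library preparation or the run cannot be told apart.

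**Figure D3:**
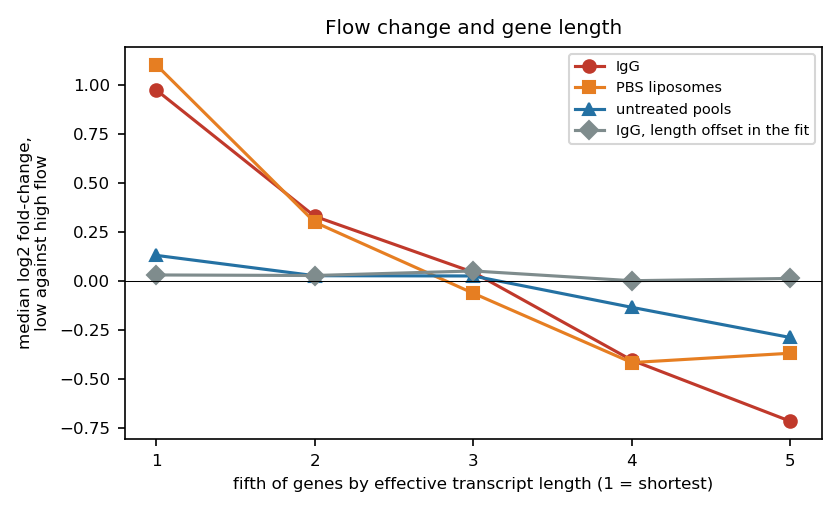
Median log2 fold-change of low against high flow (y axis) in 5 equal groups of genes ordered by effective transcript length from shortest to longest (x axis), for the IgG libraries, the PBS liposome libraries, the untreated pools, and the IgG libraries with a length offset in the fit. The IgG line falls from 0.98 to −0.71 and the untreated line from 0.13 to −0.29, and with the offset the IgG medians stay between 0.00 and 0.05.

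Genes of respiration, glycolysis and sterol synthesis rose more often than they fell, and for the respiratory chain the count depended on the handling of transcript length. Of 25 respiratory chain genes 20 rose and none fell (median 1.01), against 22.8% raised of all genes tested. Cycs, cytochrome c, had 93.2 and 119 FPKM at low flow and 15.4 and 22.6 at high flow, with a log2 fold-change of 2.39 (SE 0.52, adjusted p = 0.00528), and Uqcrc1, a subunit of complex III, 204 and 268 FPKM at low flow and 116 and 105 at high flow, with a log2 fold-change of 1.01 (SE 0.24, adjusted p = 0.00788). Among subunits of cytochrome oxidase with short transcripts, Cox4i1 had 499 and 450.1 FPKM at low flow and 264 and 199 at high flow (0.95) and Ndufa4 286 and 275 FPKM at low flow and 104 and 71.9 at high flow (1.60). Under the length offset these last 2 changed sign, to −0.47 and −0.29, neither past the threshold, and over the list 6 genes rose and 2 fell, at a median of 0.17. Of 18 glycolytic genes 8 rose and 1 fell, Pfkfb3 (−1.18) (median 0.84), and with the offset 8 rose and none fell. Gapdh had 1448 and 1547 FPKM at low flow and 429 and 409 at high flow, with a log2 fold-change of 1.76 (SE 0.34, adjusted p = 0.00336), Eno1, enolase, 575 and 818 FPKM at low flow and 199.97 and 171 at high flow (1.83) and Ldha, lactate dehydrogenase, 812 and 963 FPKM at low flow and 292 and 304 at high flow (1.49). Low flow was the higher group in all 3, with no overlap. Aldoa had 514 and 545 FPKM at low flow and 473 and 406 at high flow, with a log2 fold-change of 0.19 (adjusted p = 0.430). Of 18 tested genes of cholesterol synthesis and uptake 10 rose and none fell (median 1.24), and 10 rose with the offset. Sqle, squalene epoxidase, had 8.65 and 14.5 FPKM at low flow and 1.63 and 0.621 at high flow (3.30), and Idi1, isopentenyl diphosphate isomerase, 18.7 and 24.5 FPKM at low flow and 3.98 and 7.21 at high flow (1.86). Among 11 tested fatty acid uptake genes 2 rose, Fabp5 (1.45) and Meox2 (at least 4.39-fold), and 1 fell, Slc27a4 (−0.84), below the shares of 22.8% and 17.7% over all genes tested. Fabp5 had 66.2 and 61.2 FPKM at low flow and 26.4 and 17.6 at high flow (1.45) and Fabp4 145 and 31.6 FPKM at low flow and 84.6 and 156 at high flow (log2 fold-change −0.55, adjusted p = 0.619). Leaving out 1 library ended the calls of Uqcrc1 without low-flow library 2 and Sqle without low-flow library 2 or high-flow library 2. That of Idi1 was lost without low-flow library 2 or high-flow library 1. Cox4i1 lost its call without either low-flow library or high-flow library 2, and Fabp5 without any 1 of the 4. Without low-flow library 2 the numbers raised were 13 of the respiratory chain, 4 of glycolysis and 2 of cholesterol synthesis, and without high-flow library 1 they were 18, 4 and 5. Kept calls were 12, 3 and 2, and none of fatty acid uptake.

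Genes of protein folding and of the oxidant defense rose in part. Of 20 tested genes of the unfolded protein response 10 rose and 1 fell, the chaperone gene Dnajb9 (median 0.88), and of 14 tested NRF2 targets 8 rose and 1 fell, Nqo1 (median 0.93), against 22.8% raised and 17.7% lowered of all genes tested. The raised NRF2 targets were Hmox1 (3.09), Txnrd1 (1.42), Srxn1 (1.03), Slc7a11 (a ratio of 91.9 on 2 counts at high flow, 95% counting interval 25.2 to 763), Gsr (1.63), G6pdx (0.84), Prdx1 (1.35) and Txn1 (2.02). Hspa5, the chaperone BiP of the endoplasmic reticulum, had 717 and 1201 FPKM at low flow and 289.9 and 302 at high flow, with a log2 fold-change of 1.62 (SE 0.41, adjusted p = 0.0102). Xbp1, a transcription factor of the response, had 346 and 347 FPKM at low flow and 161 and 151 at high flow, with a log2 fold-change of 1.07 (SE 0.22, adjusted p = 0.00411). Asns, asparagine synthetase, a target of Atf4, had 20.1 and 27.1 FPKM at low flow and 0 and 1.61 at high flow (4.74). The lectin chaperone Calr had 331 and 369 FPKM at low flow and 268 and 235 at high flow and did not pass the threshold (log2 fold-change 0.40, adjusted p = 0.266). Txn1, thioredoxin, had 207 and 194 FPKM at low flow and 53.9 and 39.5 at high flow, with a log2 fold-change of 2.02 (SE 0.31, adjusted p = 0.00121), Prdx1, a peroxiredoxin, 733 and 876 FPKM at low flow and 323 and 275 at high flow (1.35) and Gsr, glutathione reductase, 115 and 118 FPKM at low flow and 35.5 and 35.6 at high flow (1.63). None of these 3 overlapped between the groups, and all kept their calls with the length offset. Calls lost with 1 library left out were those of Hspa5 and Asns without low-flow library 2 or high-flow library 1. Without low-flow library 2 the numbers raised were 4 of the unfolded protein response and 5 of the NRF2 targets, and without high-flow library 1 they were 5 and 4. Each list kept 4 raised calls.

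More matrix genes fell than rose. Of 27 tested collagens and other matrix proteins 9 fell, 5 rose and 13 did not pass the threshold (median −0.61), beside 17.7% lowered and 22.8% raised of all genes tested. The lowered ones were Col1a1 (−2.37), Col1a2 (−2.14), Col4a1 (−1.30), Col5a1 (−1.79), Lama5 (−2.02), Eln (−3.49), Fbln2 (−2.02), Bgn (−1.28) and Hspg2 (−2.18), and the raised ones Col8a1 (1.69), Lamb1 (3.51), Tnc (at least 4.89-fold), Spp1 (5.96) and Sparc (0.83). Eln, elastin, had 214 and 52.2 FPKM at low flow and 1799.7 and 1019.5 at high flow, with a log2 fold-change of −3.49 (SE 0.67, adjusted p = 0.00315), and Fbln2, which sits beside elastic fibers, 108 and 88.9 FPKM at low flow and 400.5 and 354 at high flow, with a log2 fold-change of −2.02 (SE 0.39, adjusted p = 0.00320). Both were lower in each low-flow library, as the summed fibroblast markers were, and the part of such cells was not tested. The secreted proteins Tnc, tenascin-C, and Spp1, osteopontin, which appear in injured vessels, rose: Tnc had 0.191 and 0.149 FPKM at low flow and 0 and 0 at high flow, with a level at least 4.89-fold higher at low flow (adjusted p = 0.0104), and Spp1 86.9 and 243 FPKM at low flow and 1.54 and 3.42 at high flow, with a log2 fold-change of 5.96 (SE 0.90, adjusted p = 0.00117). Fn1, fibronectin, a gene known for its alternative exons, had 66.8 and 62.1 FPKM at low flow and 107 and 135 at high flow, with a log2 fold-change of −0.99 (SE 0.50, adjusted p = 0.132), and did not pass the threshold. Of 20 tested proteases and inhibitors 5 rose, Mmp9 (4.0), Mmp14 (2.10), Adamts4 (at least 105-fold), Timp1 (2.89) and Ctss (5.41), and 4 fell, Adamts1 (−1.14), Timp2 (−1.63), Timp3 (−2.38) and Lox (−2.15), near the shares of 22.8% and 17.7% over all genes tested. Ctss, cathepsin S of myeloid cells, had 240.2 and 257 FPKM at low flow and 1.34 and 9.46 at high flow (5.41), and Adamts4, an aggrecanase, 6.79 and 7.04 FPKM at low flow and 0 and 0 at high flow. Among inhibitors Timp1 rose, with 116 and 155 FPKM at low flow and 16.3 and 18.1 at high flow (2.89), and Timp3 fell, with 161 and 81.3 FPKM at low flow and 485 and 698 at high flow (−2.38). Lox, which crosslinks collagen and elastin, had 58.2 and 45.6 FPKM at low flow and 203 and 231 at high flow (−2.15). Among 12 tested integrin chains 2 rose, Itga2 (at least 56.3-fold) and Itga4 (1.75), and 2 fell, Itga9 (−2.69) and Itgb4 (−3.58), shares below those of all genes tested (22.8% raised and 17.7% lowered). Itga2, a collagen receptor chain listed at 0 at high flow, had 2.16 and 4.25 FPKM at low flow and was at least 56.3-fold higher, and Itgb4, a chain of a laminin receptor, had 10.1 and 3.58 FPKM at low flow and 84.4 and 69.5 at high flow (−3.58). Itga5, of the fibronectin receptor, had 142 and 162 FPKM at low flow and 131 and 191 at high flow (log2 fold-change −0.18, adjusted p = 0.836). Of 22 genes of coagulation and fibrinolysis 4 rose, a share below the 22.8% of all genes, and 8 fell, against 17.7%. The raised ones included Procr (2.25), Plaur (2.20) and Serpinb2 (at least 9.38-fold), and the lowered ones Vwf (−2.50), Thbd (−2.19), F5 (−3.16), F8 (−1.32), Pros1 (−0.90), F2rl1 (−2.61), Entpd1 (−1.70) and Nt5e (−0.96). Procr, the protein C receptor, had 1028 and 841 FPKM at low flow and 181 and 188 at high flow (2.25), and F5, coagulation factor V, 0.853 and 0.275 FPKM at low flow and 2.69 and 6.70 at high flow (−3.16). With 1 library left out, calls were lost for Procr without high-flow library 1 (adjusted p = 0.0540), Timp2 without low-flow library 2 (adjusted p = 0.0611), Bgn without low-flow library 2 or high-flow library 1 (adjusted p = 0.0803 to 0.148), Sparc without low-flow library 2 or either high-flow library (adjusted p = 0.0866 to 0.204), Col1a1 without any 1 of the 4 (adjusted p = 0.0700 to 0.147), Adamts4 without either high-flow library (adjusted p = 0.0590 to 0.0612) and F5 without low-flow library 2 or high-flow library 2 (adjusted p = 0.0666 to 0.0943). Without low-flow library 2 the matrix list had 5 lowered and 2 raised members, and with the length offset 7 and 4 (median −0.29). Kept calls were 5 lowered and 2 raised matrix genes, 2 and 2 of the proteases and inhibitors, 2 and 2 of the integrins and 4 and 1 of the coagulation genes.

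Clock genes fell without an exception among those called. Of 18 tested genes 9 fell and none rose (median −1.32), against 17.7% lowered and 22.8% raised of all genes tested. They were Npas2 (−2.66), Per1 (−1.63), Per2 (−2.56), Per3 (−1.54), Cry2 (−1.79), Nr1d2 (−1.48), Tef (−2.29), Hlf (−1.68) and Rora (−1.38). Per2, a repressor of the clock, had 5.64 and 3.68 FPKM at low flow and 21.1 and 30.4 at high flow, with a log2 fold-change of −2.56 (SE 0.43, adjusted p = 0.00182), Cry2, its partner, 16.1 and 9.87 FPKM at low flow and 38.8 and 45.4 at high flow, with a log2 fold-change of −1.79 (SE 0.34, adjusted p = 0.00307), and Tef, an output factor, 44.6 and 21.5 FPKM at low flow and 169 and 135 at high flow, with a log2 fold-change of −2.29 (SE 0.45, adjusted p = 0.00360). Each was lower in both low-flow libraries. Dbp, another output factor, had 37.6 and 9.70 FPKM at low flow and 82.5 and 24.6 at high flow (log2 fold-change −1.26, adjusted p = 0.164), and its replicates differed by over 3-fold in each group. The time of day of collection is not given in the labels, so its part in these differences was not tested. Under the offset 6 clock genes fell, with the run term 10, without low-flow library 2 4, without high-flow library 2 5 and without high-flow library 1 6. The kept calls were those of Per2, Cry2, Nr1d2 and Tef. Beside the same shares, of 18 immediate early genes 6 rose, Fos (5.15), Fosl1 (a ratio of 1294 on 1 count at high flow, 95% counting interval 232 to 51158), Junb (1.67), Egr1 (2.41), Egr2 (5.17) and Atf3 (1.68), and 2 fell, Jund (−1.49) and Dusp1 (−1.21). Fos had 273 and 27.6 FPKM at low flow and 4.89 and 3.09 at high flow, with a log2 fold-change of 5.15 (SE 1.12, adjusted p = 0.00524), and Egr1 212 and 41.9 FPKM at low flow and 26.9 and 17.9 at high flow (2.41), while Jund fell, with 89.2 and 75.6 FPKM at low flow and 198 and 239 at high flow (−1.49), and Jun had 175 and 95.3 FPKM at low flow and 198 and 187 at high flow (log2 fold-change −0.60, adjusted p = 0.115). Of 15 hypoxia genes 2 rose, a share below that of all genes, Egln3 (4.10) and Adm (4.10), and 5 fell, Vegfa (−1.83), Epas1 (−3.02), Ndrg1 (−1.32), P4ha2 (−0.89) and Ddit4 (−3.41). Epas1, the hypoxia factor HIF-2 alpha of endothelium, had 27.9 and 14.6 FPKM at low flow and 159 and 165 at high flow, with a log2 fold-change of −3.02 (SE 0.45, adjusted p = 0.00114), and Ddit4, a target of hypoxia and of glucocorticoids, 2.13 and 0.920 FPKM at low flow and 16.5 and 14 at high flow (−3.41), whereas Hif1a had 63.4 and 69.2 FPKM at low flow and 59.0 and 55.9 at high flow (log2 fold-change 0.12, adjusted p = 0.754). The immediate early genes depended on low-flow library 1: without it 3 rose and 4 fell, with the median down from 1.15 to 0.31, and their summed level was 2136 and 956 FPKM at low flow and 1071 and 1074 at high flow. Kept calls were Fos, Egr2 and Jund there and Epas1, P4ha2 and Ddit4 of the hypoxia genes. The call of Egr1 was lost without low-flow library 1 or either high-flow library (adjusted p = 0.0624 to 0.277).

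Few interferon targets passed the test. Of 24 tested, 3 rose, Bst2 (0.98), Ifitm3 (1.34) and Zbp1 (2.77), and 1 fell, Ifih1 (−1.78), shares below the 22.8% and 17.7% of all genes tested. Irf1 had 96.5 and 49.9 FPKM at low flow and 84.7 and 63.5 at high flow (log2 fold-change −0.10, adjusted p = 0.862), Ifit3 38.0 and 16.5 FPKM at low flow and 62.5 and 48.9 at high flow (log2 fold-change −1.12, adjusted p = 0.163), and Ifih1, a sensor of double-stranded RNA, 2.74 and 1.76 FPKM at low flow and 6.73 and 7.78 at high flow (log2 fold-change −1.78, adjusted p = 0.00350). The groups overlapped for Irf1 and not for the other two. Ifitm3, a membrane protein that limits virus entry, had 1196 and 793 FPKM at low flow and 459 and 283 at high flow (log2 fold-change 1.34, adjusted p = 0.00489), but its change became −0.13 with the length offset. In antigen presentation 8 of 17 genes rose and 1 fell, the peptide transporter gene Tap2. The raised ones belong to the class II pathway, in which March1 limits the surface level, and were H2-Aa (3.82), H2-Ab1 (4.57), H2-Eb1 (4.17), H2-DMa (3.8), H2-DMb1 (2.20), Cd74 (3.71), Ciita (5.57) and March1 (5.84). Cd74, the invariant chain, had 740.1 and 710.2 FPKM at low flow and 58.0 and 46.4 at high flow, with a log2 fold-change of 3.71 (SE 0.65, adjusted p = 0.00204), H2-Ab1 481 and 396 FPKM at low flow and 23.5 and 11.6 at high flow (4.57), and Ciita, their transcriptional activator, 2.65 and 2.10 FPKM at low flow and 0 and 0.0880 at high flow (5.57). These are genes of antigen-presenting leukocytes, and the part of such cells in their rise was not tested. The class I genes, whose close paralogs make the split of reads uncertain, did not pass the threshold: H2-K1 had 1147 and 549.8 FPKM at low flow and 1089 and 643 at high flow (log2 fold-change −0.11, adjusted p = 0.837) and H2-D1 2215 and 1411 FPKM at low flow and 3059.8 and 2209 at high flow (log2 fold-change −0.62, adjusted p = 0.163). Bst2 lost its call in the fit of the 4 libraries alone (adjusted p = 0.0716) and without either low-flow library or high-flow library 2 (adjusted p = 0.0508 to 0.232), and Zbp1 without low-flow library 1 or either high-flow library (adjusted p = 0.0676 to 0.0892). None of the 3 raised interferon calls held with the length offset. The median of the antigen presentation list went from 0.21 to −0.31 under it, with 7 raised and 2 lowered, and 7 of the raised calls there were kept.

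Regulators of splicing, the subject of the study, rose more often than they fell. Of 32 tested 12 rose and 1 fell (median 0.71), against 22.8% raised and 17.7% lowered of all genes tested. The raised ones were Srsf2 (1.79), Srsf3 (1.2), Srsf6 (1.25), Srsf7 (1.31), Hnrnpa1 (2.42), Hnrnpa2b1 (1.18), Hnrnpc (1.16), Hnrnpm (1.00), Srpk1 (1.01), Tra2b (0.94), Elavl1 (0.93) and Rbm3 (1.38), and the lowered one was Mbnl1 (−0.90). Rbfox2 had 4.72 and 5.25 FPKM at low flow and 4.41 and 4.18 at high flow, with a log2 fold-change of 0.13 (SE 0.33, adjusted p = 0.770), so no change in its total level was detectable with these 4 libraries. Of the SR proteins, which promote exon inclusion, Srsf2 had 359 and 398 FPKM at low flow and 116 and 90.3 at high flow (1.79) and Srsf3 257 and 288 FPKM at low flow and 114 and 109.8 at high flow (1.2). Hnrnpa1, a splicing repressor of the hnRNP family with several processed copies in the genome, had 136 and 182 FPKM at low flow and 33.6 and 22.6 at high flow, with a log2 fold-change of 2.42 (SE 0.46, adjusted p = 0.00284). Rbm3, a cold-inducible RNA-binding protein, had 411 and 425 FPKM at low flow and 167 and 137 at high flow (1.38). For these 4 genes both low-flow libraries lay above both high-flow ones, and Srsf5 had 277 and 165 FPKM at low flow and 285 and 176 at high flow (log2 fold-change −0.14, adjusted p = 0.723). The number raised was 16 with the run term and 14 with the length offset, but 4 without low-flow library 2 and 7 without high-flow library 1. Kept calls were those of Srsf2, Srsf3, Hnrnpa1 and Rbm3. Tra2b lost its call without low-flow library 2 or either high-flow library (adjusted p = 0.0762 to 0.224) and Hnrnpa2b1 without low-flow library 2 (adjusted p = 0.0593).

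**Figure D4:**
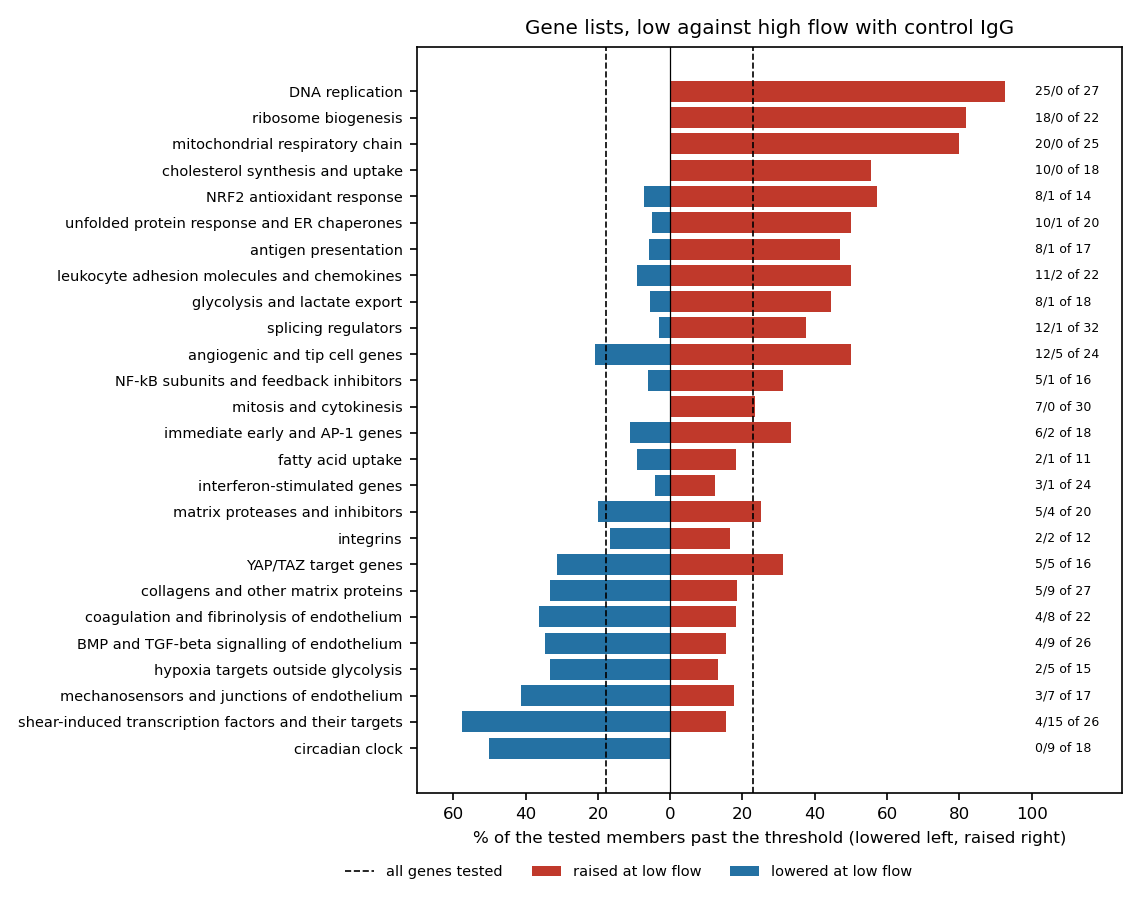
Share of the tested members of each pathway list that rose (red, right) or fell (blue, left) at low flow with IgG, in percent on the x axis, with the counts at the right and dashed lines at 22.8% raised and 17.7% lowered for all genes tested. DNA replication, ribosome biogenesis and the respiratory chain have the longest bars to the right, and shear-induced genes and the clock the longest to the left.

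The flow change with IgG was set beside those of other mice. Untreated pools, 3 at low and 3 at high flow from the same strain and time point, share no library with the IgG comparison and were sequenced in another run. Among them 5195 of 11236 genes (46.2%) were called, 23.6% raised and 22.6% lowered. Of 11182 genes tested in both comparisons, 2686 rose with IgG and 2648 in untreated pools, and 1723 rose in both, which is 64.1% of the first and 65.1% of the second. For lowered genes the numbers were 2236 and 2525, with 1251 in both, or 55.9% and 49.5%. Of the genes raised with IgG 89.3% had the same sign in untreated pools, and of those lowered 91.9%, and 30 and 8 were called in the opposite direction. With PBS liposomes 4692 of 13401 genes (35.0%) were called, and 2154 of the 3053 genes raised with IgG (70.6%) and 1547 of the 2369 lowered (65.3%) were called there in the same direction, beside 19.6% raised and 15.5% lowered of all genes tested there. The PBS and IgG libraries share their sequencing runs, low with low and high with high, so a run effect would be common to both.

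**Figure D5:**
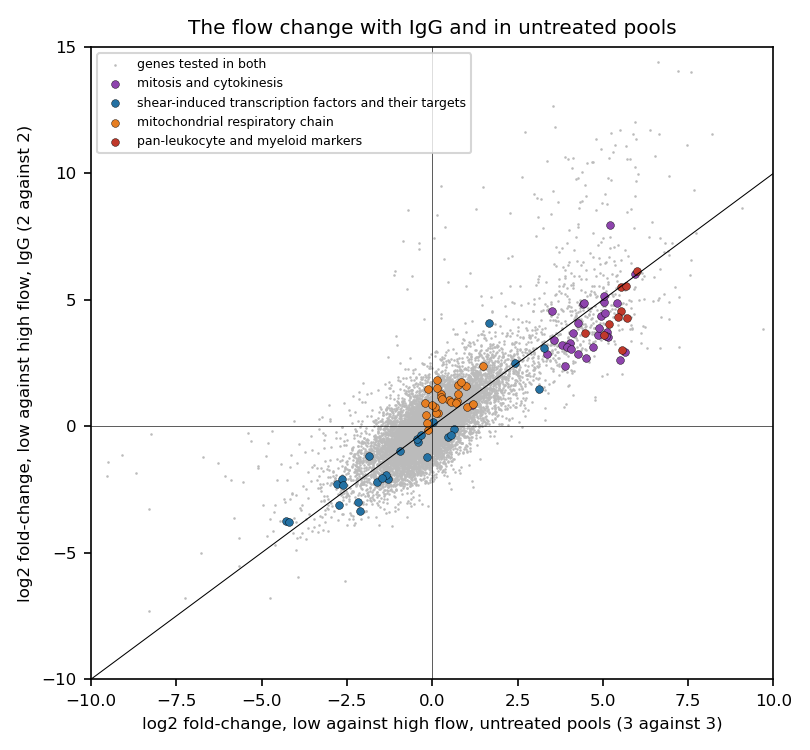
Log2 fold-change of low against high flow with IgG (y axis) against that in untreated pools (x axis) for the genes tested in both, in grey, with 4 lists in color and the line of equality. All 30 mitotic genes and all 10 pan-leukocyte and myeloid markers have the same sign in both, as do 23 of 26 shear-induced genes, and 22 of 25 respiratory chain genes lie above the line, with a median of 1.01 with IgG and 0.25 in untreated pools.

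Untreated pools were fitted alone and the IgG libraries with other treated groups. Mitotic genes rose in 30 of 30 in untreated pools (median 4.62), against 7 of 30 with IgG (median 3.59) and 27 of 30 where the 4 IgG libraries were fitted alone, and replication genes in 27 of 27 against 25 of 27. Of 26 shear-induced genes 14 fell and 4 rose in untreated pools, against 15 and 4 with IgG. The respiratory chain had 5 raised of 25 in untreated pools, beside 23.6% of all genes tested there, against 20 of 25 with IgG. With the length offset the IgG libraries had 6 raised and 2 lowered. The direct test of the difference, given next, called 1 of the 25 genes, greater with IgG. Ribosomal protein genes rose in 77 of 88 in untreated pools against 78 of 90 with IgG. The difference between the 2 flow changes, tested as an interaction over 10 libraries, passed the threshold for 702 of 12591 genes (5.58%), greater with IgG in 374 (2.97%) and smaller in 328 (2.61%). Tie1 fell with IgG and not in untreated pools, where its change was 0.12, a difference of −1.66 (SE 0.39, adjusted p = 0.0334). Itga5 had a change of −0.18 with IgG and 1.85 in untreated pools, a difference of −2.08 (SE 0.48, adjusted p = 0.0314). Fn1 went from −0.99 to 1.01, a difference of −2.06 (SE 0.40, adjusted p = 0.0215). These 3 have in common that the untreated change was the more positive one. Srsf2 and Fbl had the greater change with IgG, by differences of 1.67 and 1.90. The count of differences rested on single libraries: it was 38 without low-flow library 2 with IgG, 259 without low-flow library 1, 534 without high-flow library 1 and 1016 without high-flow library 2, and DESeq2 gave 1114. Treatment, sequencing run, read length and cohort all differ between these sets of libraries and cannot be told apart here.

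Between IgG and PBS liposomes the flow change differed in 0 of 13401 genes (0.0%) by edgeR at an adjusted p under 0.05, with 801 genes at an unadjusted p under 0.05, while DESeq2 called 30 genes, 17 of them greater with IgG. A p that misses the threshold does not show that the changes were alike. Without high-flow library 2 edgeR called 22.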

How the data were processed

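Intimal RNA of mouse carotid arteries was sequenced from SMARTer Universal Low Input libraries with 150 bp paired-end reads. Per the study's methods and the submitters' notes, the authors aligned reads with STAR 2.5.1b, estimated expected counts with RSEM 1.2.15 on mm9 and deposited expected counts and RPKM per gene. Expected counts, of which 5.98% to 9.55% in the IgG libraries were not whole, were rounded. The table also holds 176 value columns that were not used here, and 1 entry that names no gene was left out. FPKM was computed by dividing counts by effective length and library total, and the deposited RPKM served as an alternative for levels (median ratio 0.943). FPKM is relative to total counts, while fold changes follow TMM scaling.

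Low and high flow were compared with edgeR 4.0.16 (R 4.3.3; quasi-likelihood test, filterByExpr, TMM, Benjamini-Hochberg adjustment, threshold 0.05) over 14 treated libraries in 7 groups of 2. Untreated pools were fitted separately, and differences of flow changes as interactions. SE is the fold change over the root of its F statistic. On simulated counts for 13401 genes the test recovered 115 of 200 genes with a log2 change of 2, with 4 others. The simulated counts had no length or run effect and far fewer changed genes than were called here. These rates therefore need not hold for the data. DESeq2 1.42.0, RLE scaling, no filter, a fold threshold, a replicate block, single libraries left out, a length offset and a run term were alternatives, and self-written summaries used Python 3.11.15 with pandas 2.3.3.

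Named genes are the 10 genes with the largest fitted fold-change in each direction (called, groups not overlapping, at least 10 FPKM in the higher group), the most abundant members of each list, genes the study names and those differing most between treatments, 190 in all. Some of these are not reported here. A further 78 list members were named after their values were seen, and other called members of a list are given by their fold change. Lists and members were chosen with earlier results of these data known. Coordinates are of mm9 from GENCODE, and promoters are from RefSeq on GRCm38.p6.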

Additional observations from a re-analysis of the deposited data

Results flagged for a closer look

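The flow change differed between IgG and untreated pools for 702 genes, and 22 of the genes named in the report are among them. Each difference below is the log2 fold-change with IgG minus that in untreated pools, from a fit of 4 IgG and 6 untreated libraries, so it can depart a little from the difference of the values given for each set. Adjusted p-values of the 22 lay between 0.00601 and 0.0489.

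The change was the more negative with IgG for 9 of 26 tested collagens and other matrix proteins, 3 of 17 junction genes, 2 of 23 angiogenic genes, 2 of 12 integrin chains, 1 of 25 BMP and TGF-beta genes and 1 of 11 endothelial markers, beside 2.61% of all genes tested, and the more positive for 1 angiogenic gene and 1 integrin chain of these lists. Among the named genes endoglin, Eng, had −1.30 with IgG and 0.41 in untreated pools, difference −1.77. The others were Tie1 (−1.47 with IgG and 0.12 in untreated pools, difference −1.66), the lymphatic VEGF receptor Flt4 (−1.03 with IgG and 0.43 in untreated pools, difference −1.52), the semaphorin receptor Plxnd1 (−0.58 with IgG and 0.78 in untreated pools, difference −1.42), Tjp1 (−1.98 with IgG and −0.65 in untreated pools, difference −1.39), Fn1 (−0.99 with IgG and 1.01 in untreated pools, difference −2.06), Fbln2 (−2.02 with IgG and −0.15 in untreated pools, difference −1.93) and the integrin chains Itga5 (−0.18 with IgG and 1.85 in untreated pools, difference −2.08) and Itgb4 (−3.58 with IgG and −1.87 in untreated pools, difference −1.77). Length medians differed between the sets, as given in the report, and the part of length in these differences was not tested. Itgb2, the leukocyte integrin chain, rose in both sets and less with IgG (3.04 with IgG and 5.56 in untreated pools, difference −2.59).

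Cox5b of the respiratory chain had 1.84 with IgG and 0.14 in untreated pools, difference 1.64, and its change with IgG was 0.16 with the length offset (adjusted p = 0.424). The change was also the greater with IgG for Srsf2 (1.79 with IgG and 0.07 in untreated pools, difference 1.67), Fbl (2.89 with IgG and 0.93 in untreated pools, difference 1.90) and the integrin chain Itga4 (1.75 with IgG and −0.01 in untreated pools, difference 1.69). Cidea and Cox8b, markers of brown fat, had −1.15 with IgG and −9.08 in untreated pools, difference 7.93, and −0.32 with IgG and −8.24 in untreated pools, difference 8.05. Their levels with IgG were 6.54 and 0.154 FPKM at low flow and 6.94 and 6.91 at high flow for Cidea and 9.93 and 0.239 FPKM at low flow and 3.33 and 8.35 at high flow for Cox8b, and fat cell markers were uneven between libraries in both sets.

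Ano1, Havcr2, 4833422F24Rik, BC048355, Hist1h4d and Nrp2 were listed at 0 in both high-flow libraries with IgG, so their fitted differences of 8.15, 5.19, 4.33, 5.71, 6.27 and 7.10 depend on the prior count of the fit and are no measure of size. Hist1h4d has near-identical copies among the histone genes, between which reads may have been split.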

How the results depend on the processing

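The fit of the 4 IgG libraries alone called 5105 genes, DESeq2 on them 5659, RLE scaling 5442, no filter 5231, the run term 5289 and the length offset 4398. Leaving out 1 library gave 2141 to 4231 calls, where the remaining library of a group is taken to vary like the others. For the difference from PBS liposomes DESeq2 called 30 genes and leaving out a library gave 0 to 22. For the difference from untreated pools DESeq2 called 1114 and leaving out a library gave 38 to 1016. The differences between replicates at low and at high flow had a Pearson correlation of 0.018 over 11311 genes. This cannot tell whether libraries with the same number come from the same mice. With the replicate block 5199 genes were called, and 5035 of the 5422 kept their call.

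Of 193 named genes that were called, 4 lost the call in the fit of the 4 libraries, 3 with DESeq2, 8 with the replicate block, 2 without a filter, 24 with the run term and 29 with the length offset, of which 4 changed sign. RLE scaling changed no call among them. Leaving out a library lost 25, 61, 57 and 48 calls for low-flow libraries 1 and 2 and high-flow libraries 1 and 2. The cause of these losses was not tested. The run term and the length offset were chosen after the data were seen.

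Signs changed for these log2 fold-changes. With the length offset they were Aldoa −0.38, Anxa2 −0.054, B2m −0.88, Bmp4 −0.022, Bst2 −0.26, Cox4i1 −0.47, Ctsb 0.47, Esam −0.14, Icam1 −0.017, Id2 −0.44, Id3 −1.01, Ifitm3 −0.13, Itga5 0.39, Ndufa4 −0.29, Nrp1 0.44, Plxnd1 0.16, Ppbp −0.17, S100a10 −0.77, S1pr1 0.017 and Vegfb −0.54, and Bst2, Cox4i1, Ifitm3 and Ndufa4 among them were called without it. With the run term they were Aldoa −0.32, B2m −0.096, Bmp4 −0.71, Cd3g −2.83, Cnn1 −1.42, Icam1 −0.70, Id2 −0.18, Id3 −0.91, Itga5 0.35, Ppbp −0.21 and Vcam1 −0.52, none of them called in the joint fit, and without a filter Id3 −0.038. Over the fits without 1 library they ranged for B2m −0.22 to 0.63, Cd3e −1.32 to 0.15, Cox8b −4.49 to 0.66, Ctsl −0.082 to 0.038, Dcn −0.85 to 0.36, F11r −0.25 to 0.12, Fabp4 −2.00 to 0.17, Gbp2 −1.2 to 0.090, H2-K1 −0.71 to 0.32, Icam1 −0.13 to 0.25, Id3 −0.072 to 0.10, Insig1 −0.45 to 0.16, Irf1 −0.63 to 0.30, Irf9 −0.81 to 0.081, Itga5 −0.44 to 0.16, S1pr1 −0.26 to 0.12, Srsf5 −0.53 to 0.23, Tg −0.16 to 11.70, Vcam1 −0.052 to 0.37, Vegfb −0.046 to 0.48 and Wwtr1 −0.028 to 0.45, none of them called.

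Depth, n and the layout of the runs limit these results. A level under 3 counts per library cannot be told from 0. The low-flow IgG libraries shared a run and the high-flow ones another, so a flow effect cannot be separated from the sequencing run.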
